A study of Mus musculus with 2 samples.

Results

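Arterial smooth muscle spots were the 100 spots, of 5561 kept, that stood highest for smooth muscle genes after the spots richest in leptomeningeal fibroblast RNA had been removed. Spots with at least 500 UMIs (unique molecular identifiers, counts of captured RNA molecules) were scored by the mean of ln(1 + UMIs per 10000 UMIs of the spot). In each section the 60 spots highest for the fibroblast genes Dcn, Lum, Col1a1, Col1a2, Col3a1, Ogn and Slc6a13 were removed, and the 50 highest of the rest for Acta2, Myl9 and Tagln were taken. They were compared with all 2980 and 2481 other spots of sections 1 and 2. The 60 removed spots of each section, here called leptomeningeal spots, remained among those other spots. They were also compared with the members on their own.

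The material was 10x Visium of 2 fresh-frozen brain sections, 10 µm thick, from wild-type mice of the inbred strain C57BL/6, both labelled ZT12. A Visium spot records the RNA of a small round area and can hold several cells of different types, so a smooth muscle spot is an area with smooth muscle RNA in it and not a purified cell. No treatment, genotype or time was contrasted, and the comparisons below are between spots within each section. Separate animals are not named for the sections in the labels. The p-values therefore rest only on how the differences between spot groups varied between these 2 sections, pooled over genes. That spread may be technical.

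Arteries and arterioles are wrapped in smooth muscle cells, which shorten when calcium activates myosin light chain kinase and the myosin motor pulls on alpha-smooth muscle actin. Their tone sets the flow of blood into the brain. Capillaries carry pericytes in place of smooth muscle, veins carry thin and scattered mural cells, and arteries that enter the brain from the meninges keep a sheath of perivascular fibroblasts and macrophages and are bordered by astrocyte endfeet. Many contractile genes are switched on by serum response factor and myocardin, which act through the CArG box, a short AT-rich DNA element.

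Upstream sequences are shown for some of the contractile genes that chose the spots or moved with them, and each one shown holds a window close to the CArG box. The 250 bases before the annotated start of each gene are from RefSeq on GRCm38.p6, the patch release of mm10, written 5′ to 3′ along the gene. Capitals mark every window of 10 bases that matches the CArG box with at most 1 mismatch, a search in which both strands give the same windows. Acta2 (chr19:34255374-34255623, minus strand) and Myl9 (chr2:156775214-156775463, plus strand) were used to choose the spots. Lmod1 (chr1:135324563-135324812, plus strand) and Cnn2 (chr10:79988350-79988599, plus strand) were not.
Acta2: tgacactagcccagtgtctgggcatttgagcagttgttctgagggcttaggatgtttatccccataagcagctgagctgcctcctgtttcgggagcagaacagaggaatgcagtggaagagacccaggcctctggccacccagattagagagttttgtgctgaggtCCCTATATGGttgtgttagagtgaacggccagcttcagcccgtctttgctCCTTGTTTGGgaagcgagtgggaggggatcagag
Myl9: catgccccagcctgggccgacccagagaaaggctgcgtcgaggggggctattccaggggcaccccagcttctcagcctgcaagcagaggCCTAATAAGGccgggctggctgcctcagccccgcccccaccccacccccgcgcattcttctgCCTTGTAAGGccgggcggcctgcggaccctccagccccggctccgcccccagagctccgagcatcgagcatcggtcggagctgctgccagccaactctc
Lmod1: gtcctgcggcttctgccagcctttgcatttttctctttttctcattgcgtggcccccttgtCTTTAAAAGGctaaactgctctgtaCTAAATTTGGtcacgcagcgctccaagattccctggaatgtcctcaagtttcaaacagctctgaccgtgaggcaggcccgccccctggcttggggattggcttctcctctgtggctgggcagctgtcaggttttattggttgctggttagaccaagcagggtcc
Cnn2: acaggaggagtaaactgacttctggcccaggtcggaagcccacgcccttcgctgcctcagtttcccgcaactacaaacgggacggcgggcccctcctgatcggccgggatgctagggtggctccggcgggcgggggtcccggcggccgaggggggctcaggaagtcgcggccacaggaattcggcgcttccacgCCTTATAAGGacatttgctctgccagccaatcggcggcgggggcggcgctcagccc
In Acta2 the marked windows begin 84 and 34 bases before the start, and both have 1 mismatch. The window of Myl9 that begins 161 bases before the start is an exact match, and so is that of Cnn2, 56 bases before the start. Lmod1 has windows with 1 mismatch that begin 189 and 164 bases before the start. An exact match lay in these 250 bases in 5 of the 25 genes of the contractile list with an entry (20.0%) and in 439 of all 27025 genes (1.62%). With 1 mismatch allowed the shares were 44% (11 of 25) and 21.1%. The genes with an exact match were Myl9, Cnn2, Ldb3, Myl6 and Vcl. No window with at most 1 mismatch lay in these 250 bases of Cnn1, Des, Tpm2 or Mylk, which all rose more than Cnn2. A match describes these letters and says nothing about the factor.

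The members were chosen by their measured levels of these 10 genes, which are given as a description, without a test. The smooth muscle score ran from 1.88 to 0.718 in section 1 and from 1.30 to 0.602 in section 2, and the first spot left out scored 0.714 and 0.596. The cut therefore fell in a continuous range and not at a gap. Members held a median of 8.5 UMIs of the 3 genes in section 1 and 8 in section 2. The richest member had 51 UMIs, and 6 members of section 1 and 1 of section 2 had 2 or fewer. The shallowest member had 589 UMIs in all, of which 1 was from these genes. Among the removed leptomeningeal spots, 24 of 60 and 22 of 60 also scored above the cut, so the members were not the spots with the highest smooth muscle score of the sections.

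**Figure D1:**
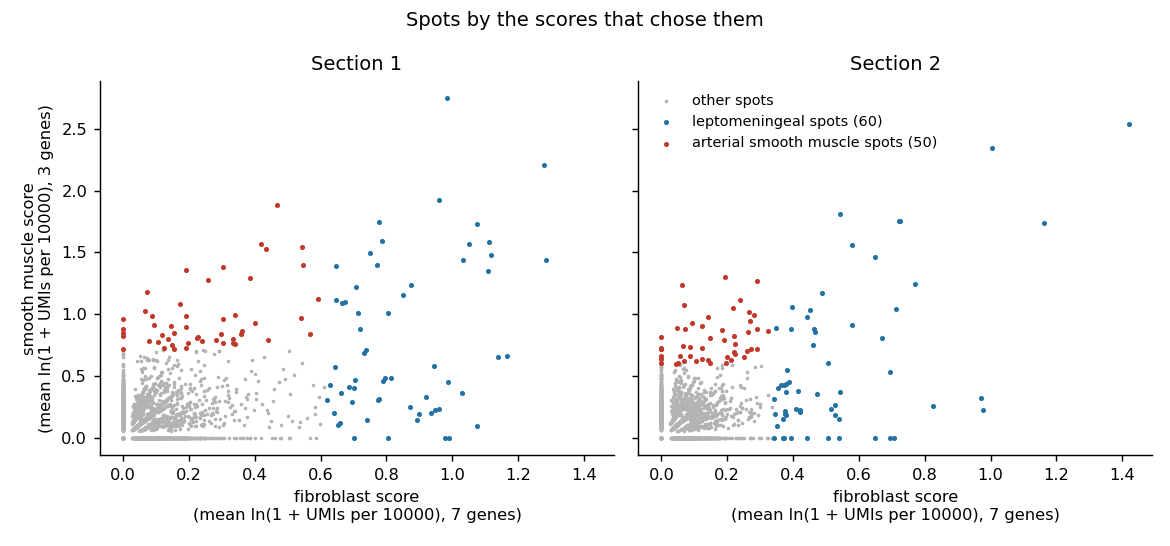
Each point is a spot, placed by its fibroblast score (x axis) and smooth muscle score (y axis), both as the mean of ln(1 + UMIs per 10000), for sections 1 and 2. The 50 members of each section (red) lie above the cut and to the left of the 60 leptomeningeal spots (blue), and their fibroblast scores reach up to the border with the removed spots.

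Acta2, alpha-smooth muscle actin, was summed over the members at 359 CPM (UMIs scaled to a total of 1e+06) for section 1 and 229 CPM for section 2, while the other spots had 30.9 and 24.2 CPM. Over single members of section 1 it ranged from 0 to 1348 CPM with a median of 254 CPM, and over those of section 2 from 60.2 to 867 CPM with a median of 202 CPM. Myl9, the regulatory light chain of smooth muscle myosin, stood at 307 and 238 CPM against 39.2 and 34.3 CPM. Tagln, an actin-binding protein of smooth muscle, was sparse, at 41.4 and 13 CPM against 2.59 and 2.26 CPM. It was found in 20 members of section 1 and 10 of section 2. Spots picked for a high count are picked partly for chance, so the choice was repeated on a random part of each spot's UMIs and the genes were read in the part not used. Acta2 was then 10.1 and 7.41 times the level of the other spots, Myl9 6.66 and 5.06 times, and Tagln 13.5 and 4.15 times.

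The fibroblast genes of the rule were not absent from the members. Dcn (decorin, a matrix proteoglycan) was at 115 and 45.6 CPM in members, 251 and 181 CPM in leptomeningeal spots and 23.2 and 20.4 CPM in the other spots. Each of the 7 genes lay between the leptomeningeal and the other spots in both sections. Of the members, 45 in section 1 and 43 in section 2 had at least 1 UMI of these genes. The 5 members of section 1 without any had a median of only 918 UMIs and no UMI of 7 smooth muscle markers that the rule did not use (Myh11, Cnn1, Mylk, Lmod1, Des, Pln and Mustn1). The 7 such members of section 2 had a median of 15368 UMIs and held 6 UMIs of these markers (59.3 CPM, against 201 CPM in the other 43). The members thus held smooth muscle RNA together with fibroblast RNA, and the counts alone do not show that they lie outside the meninges. Spot positions were not used.

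The members' sums held 797492 UMIs in section 1 and 920947 in section 2. The median member had 15522 and 17731 UMIs, the median other spot 18177 and 21626. Members under 5000 UMIs numbered 4 and 1, and mitochondrial genes took 16.9% and 14.7% of their UMIs against 14.8% and 14.3% in the other spots. The sections shared 1952 spot barcodes, which mark positions of the array layout, and no member barcode occurred in both.

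For the test, counts were summed over the members and over the other spots of each section, and the 4 sums were fitted with edgeR's quasi-likelihood test with a term for the section. The 10 genes of the rule were described only. Of 15886 genes tested, 2.97% were higher and 2.39% lower after Benjamini-Hochberg adjustment over the whole table (adjusted p under 0.05). A change of at least 2-fold as well was seen in 1.18% (187 genes higher) and 0.101% (16 genes lower). The median log2 fold change over all genes was -0.03. Errors below are the SE of the log2 fold change. The fit took each gene's spread wholly from the trend over all genes, so a gene could be called although the sections differed, and 9 of the 851 called genes had opposite signs in the sections. A gene expressed in the same cells as Acta2 follows the choice of the spots, and fewer cells of a type and less RNA per cell cannot be told apart in a spot.

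Contractile genes that the rule did not use were higher in the members. Of 26 tested genes of the list, 15 were higher and none lower, with a median log2 fold change of 0.85. Myh11, the smooth muscle myosin heavy chain, summed to 123 CPM over the members of section 1, where the other spots had 12 CPM, and to 65.2 CPM over those of section 2, where they had 9.16 CPM. It was found in 34 and 28 of the 50 members, with highest single values of 379 and 355 CPM and medians of 79.8 and 47.8 CPM. The increase was 3.13 ± 0.17 on the log2 scale (adjusted p = 2.72e-72), or 8.75-fold, and the members were higher in both sections. Cnn1 (calponin 1, which binds actin and damps the myosin motor) rose by 2.91 ± 0.51, on 16 and 6 UMIs, with 9 and 5 members holding any.

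The rest of the actin and myosin machinery followed in part. Lmod1, a leiomodin that seeds actin filaments, rose by 2.74 ± 0.52. Des, the intermediate filament protein desmin, rose by 2.45 ± 0.40. Tpm2, a tropomyosin that lies along the actin filament, was at 129 and 92.3 CPM against 27.2 and 22.2 CPM and rose by 2.16 ± 0.14. Mylk, the myosin light chain kinase, was at 87.8 and 61.9 CPM against 17.5 and 20.7 CPM and rose by 1.95 ± 0.17. Smaller increases were called for the filamin gene Flna (1.57 ± 0.12), Smtn, Cald1, Pdlim3, Cnn2, Vcl, Tagln2, Csrp1 and Myl6. Of the genes with an exact CArG match in the sequences above and in the list, Cnn2 (1.04 ± 0.31), Vcl (0.79 ± 0.22) and Myl6 (0.24 ± 0.07) were called, and Ldb3 (0.02 ± 0.38) was not. Tpm1 (0.02 ± 0.10) and the phosphatase subunits Ppp1r12a (-0.03 ± 0.16) and Ppp1r12b (0.01 ± 0.18), which other brain cells also express, were not called. Actg2, the gamma actin of visceral smooth muscle, was at 2.51 and 2.17 CPM with an estimate of 3.33 ± 1.63 that was not called (adjusted p = 0.306).

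Fewer contractile genes were called when more fibroblast-rich spots were removed first, and the same held over all genes. With 120 spots removed per section, 10 of 25 tested genes were higher, and with 300 removed, 5 of 25 (Myh11, Mylk, Tpm2, Smtn and Flna). With 300 removed, 24 and 25 of the 50 members were the same spots. Myh11 rose by 2.39 ± 0.20 with 120 removed and by 1.89 ± 0.22 with 300. Without the term for the section, 2 of 26 were called (Myh11 and Tpm2). DESeq2 called 9 of 26. With members chosen on a random part of the UMIs and genes read in the rest, 9 of 25 were called. Lmod1, Cald1, Smtn, Vcl, Pdlim3 and Myl6 were not among them on the split UMIs.

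**Figure D2:**
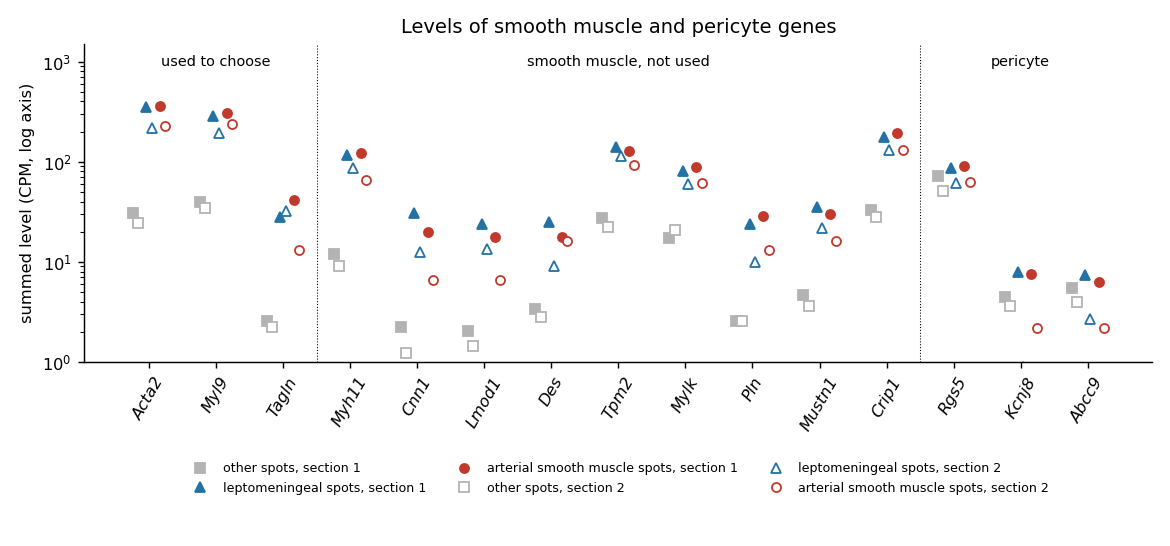
Summed level in CPM (log axis) of 15 genes in the members (red circles), leptomeningeal spots (blue triangles) and other spots (grey squares); filled symbols are section 1 and open symbols section 2. The genes from Myh11 to Crip1, which the rule did not use, lie above the other spots in both sections and near the leptomeningeal spots. Rgs5, Kcnj8 and Abcc9, picked from a longer pericyte list, lie close to the other spots. Of the 23 tested genes of that list, 8 were higher in the members.

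Further markers of arterial smooth muscle were higher too, 12 of 21 tested genes with none lower and a median of 1.55. Pln, phospholamban, which restrains the calcium pump of the sarcoplasmic reticulum, was at 28.8 and 13 CPM against 2.54 and 2.59 CPM and rose by 2.99 ± 0.39. Crip1, a small LIM protein, showed the largest rise among genes of average log2 CPM of at least 4, from 32.6 and 28 CPM to 196 and 132 CPM (2.42 ± 0.12). It was found in 39 and 43 members. Mustn1 (2.46 ± 0.33), Tinagl1 (2.38 ± 0.24) and Filip1l (2.34 ± 0.61) also rose. Map3k7cl had no UMI in the members. With 300 fibroblast-rich spots removed, 4 of the 21 were called (median 0.72). Crip1 rose by 1.57 ± 0.15 there, while Pln was at 0.64 ± 0.65 (adjusted p = 0.863) and Mustn1, Tinagl1 and Filip1l were not called.

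Members with at least 5000 UMIs were thinned to 5000 UMIs each, to compare shares of spots at equal depth. Myh11 was then seen in 47.8% of 46 members in section 1 (95% exact binomial interval 32.9% to 63.1%) and in 20.4% of 49 in section 2 (10.2% to 34.3%). In the other spots it was seen in 4.99% and 4.57%. At least 1 of the 7 unused markers was seen in 76.1% and 46.9% of members against 17.3% and 17.6% of other spots. At least 2 were seen in 41.3% and 16.3% against 2.0% and 2.08%. Many members thus showed at most 1 such marker at this depth. The thinned leptomeningeal spots showed Myh11 in 30% and 20.3%, at least 1 marker in 48.3% and 40.7%, and at least 2 in 30% and 15.3%. At least 3 were seen in 20% and 11.9% of them, against 17.4% and 2.04% of members. These shares were therefore not particular to the members. The intervals cover counting error only.

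The unused markers fell with the rank of the smooth muscle score among the members themselves. Summed over the 7 markers, section 1 gave 619 CPM in the 10 highest spots, 308 CPM in ranks 11 to 25 and 187 CPM in ranks 26 to 50. Beyond the cut the level was 123 CPM in ranks 51 to 100 and 32.1 CPM above rank 500. Section 2 gave 381, 188 and 118 CPM in the members, 74.5 CPM in ranks 51 to 100 and 35.9 CPM above rank 500. The leptomeningeal spots stood at 336 and 213 CPM, below the 10 highest members but above ranks 11 to 25 and ranks 26 to 50 in both sections. Spots just outside the cut therefore still held more of these markers than the mass of the section, and they count among the other spots.

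**Figure D3:**
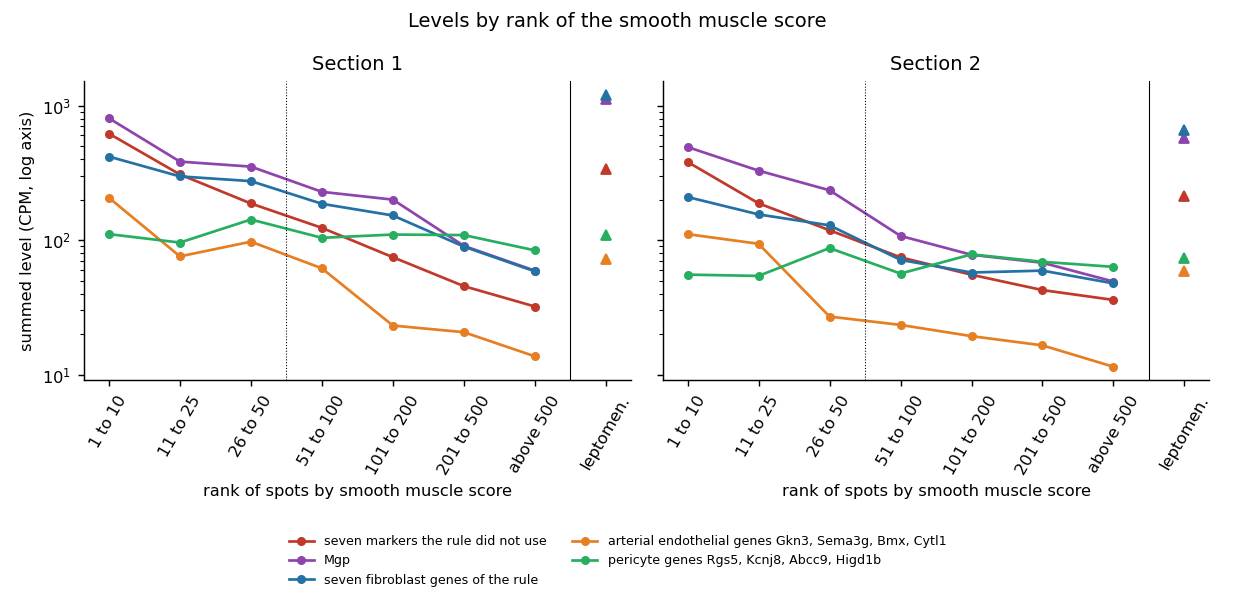
Summed level in CPM (log axis) of 5 gene groups by the rank of spots on the smooth muscle score (x axis), with the members to the left of the dotted line and the leptomeningeal spots as triangles on the right. The unused smooth muscle markers fall steeply from rank 1 outward in both sections, and Mgp, the 7 fibroblast genes of the rule and the arterial endothelial genes Gkn3, Sema3g, Bmx and Cytl1 are also lower above rank 500 than in the 10 highest spots. The 4 genes Rgs5, Kcnj8, Abcc9 and Higd1b, picked from a longer pericyte list, span 54.2 to 142 CPM over the rank groups of the members.

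Of the 23 pericyte genes tested, 8 were higher with a median of 0.64. Summed over the list, members had 998 and 650 CPM against 535 and 407 CPM in the other spots. Rgs5, a regulator of G protein signalling and a core pericyte marker, was at 91.5 and 63 CPM in members and 71.3 and 50.6 CPM in the other spots (0.34 ± 0.14, adjusted p = 0.163). The potassium channel subunits Kcnj8 (0.22 ± 0.58) and Abcc9 (-0.19 ± 0.58) and Higd1b (0.68 ± 0.39) were not called either. After thinning, Rgs5 was seen in 34.8% and 24.5% of members against 30.9% and 22.3% of other spots. The summed level of these 4 genes ranged from 95.9 to 142 CPM in the 3 rank groups of the members of section 1 and was 83.9 CPM above rank 500. In section 2 it ranged from 54.2 to 87.2 CPM against 63.3 CPM. Of the 8 genes that rose, Notch3 (1.44 ± 0.24) and Pdgfrb (0.87 ± 0.25) are receptors that smooth muscle cells carry as well, and Anpep (2.34 ± 0.71), Colec12 (1.64 ± 0.27), Mcam (1.33 ± 0.23), Ecm1 (1.17 ± 0.25), Vtn and Slc6a20a made up the rest. Of the 23, 1 was called with 300 spots removed (Mcam, 0.94 ± 0.25), Notch3 was at 0.90 ± 0.27 (adjusted p = 0.0772) and Anpep at -0.085. Anpep was no longer called with 120 removed either (1.47 ± 0.90, adjusted p = 0.531). Kcnj8 and Higd1b turned to -0.68 and -0.075 with 300 removed and Abcc9 to 0.45, none of them called.

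Among regulators of the smooth muscle state, 7 of 29 tested genes were higher and 2 lower. Notch3, the receptor that maintains arterial smooth muscle, stood at 40.1 and 26.1 CPM against 13.2 and 10.9 CPM. Its ligand Jag1 rose by 1.26 ± 0.36. The forkhead genes Foxf2 (1.30 ± 0.43) and Foxc1 (1.25 ± 0.29), the flow-responsive factor Klf2 (1.24 ± 0.21) and Tgfbr2 (0.92 ± 0.26) also rose. Mef2c (-0.46 ± 0.10) and Mrtfb (-0.37 ± 0.12), both also neuronal, fell. Myocd, the myocardin gene, had no UMI in the members. Srf, the gene of serum response factor, had 0 and 3.26 CPM, and its log2 fold change of 0.56 was not called. The RNA of serum response factor and myocardin was thus too sparse at this depth to compare. With 300 fibroblast-rich spots removed, none of the 29 was called.

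Most receptor and channel genes that set vessel tone were not called. Of 35 tested genes for receptors and effectors, 3 were higher and 2 lower, a share of higher genes of 8.57% beside 2.97% of all genes. Aoc3, a vascular amine oxidase, rose by 2.27 ± 0.66, Pde5a, the phosphodiesterase that ends nitric oxide signalling, by 1.37 ± 0.32, and Rock1, a kinase that sensitises myosin to calcium, by 0.82 ± 0.23. Adora2a, a gene of striatal neurons, fell by 1.99 ± 0.59, and the sign turned to 0.16 with 300 spots removed. Pde1a fell by 0.48 ± 0.13. The endothelin receptor Ednra was at 2.51 and 1.09 CPM, and Agtr1a, Avpr1a, P2ry2 and Gucy1a2 had no UMI in the members. For these 4 genes 3 UMIs over both sums would be 1.75 CPM, above their level in the other spots, so no lower level can be shown. Of 31 channel and calcium handling genes, Pln, Atp2a3 (1.64 ± 0.25) and Itpr1 (0.29 ± 0.09) were higher and Cacnb3 (-0.44 ± 0.12) was lower. Itpr1 was at 308 against 223 CPM in section 1 and 156 against 150 CPM in section 2. Its log2 fold change turned to -0.10 with 300 spots removed. The channel genes Cacna1c (0.01 ± 0.18) and Kcnma1 (-0.08 ± 0.13), which neurons also express, were not called, and Kcnmb1, the beta subunit found in smooth muscle, was at 2.51 and 4.34 CPM against 0.64 and 0.60 CPM without being called (adjusted p = 0.203). Of these, edgeR called 1 of 35 receptor and effector genes (Aoc3) and none of 31 channel genes with 300 spots removed. DESeq2 called none of the 35, and none of 32 was called with members chosen on a random part of the UMIs. Channel genes called higher numbered 2 of 31 in both of these settings, with 1 lower in the latter. Over all genes, calls in either direction numbered 152 of 15826 with 300 removed, 169 of 15886 with DESeq2 and 316 of 14840 on the split UMIs. None or 1 called in a list of this size lies near those shares.

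Genes of the vessel wall matrix rose together with the muscle genes. Of 47 tested, 22 were higher and none lower, with a median of 0.99. Mgp, matrix Gla protein, which restrains calcification of arterial walls, was found in 45 and 42 members, at 473 and 308 CPM against 98.3 and 64 CPM, and rose by 2.27 ± 0.09. Eln, elastin, was at 27.6 and 35.8 CPM against 5.91 and 8.10 CPM (2.17 ± 0.26). Aspn (2.42 ± 0.72), Mfap4 (2.04 ± 0.53), Ltbp1 (1.91 ± 0.35) and the proteoglycan gene Bgn (1.88 ± 0.16) rose as well, and so did basement membrane genes such as Lamb2 (1.36 ± 0.14), Lama5 (1.37 ± 0.32) and Col4a1 (1.18 ± 0.23). With 300 spots removed, 6 of 47 were called, Mgp among them (1.40 ± 0.10), while Bgn was at 0.45 ± 0.23 and Aspn at -0.021.

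Endothelial genes were read on 4 lists, which were not tested against each other. Of 22 tested arterial endothelial genes 12 were higher and none lower, with a median of 1.27. Gkn3, a marker of arterial endothelium in the mouse brain, was at 76.5 and 45.6 CPM against 9.32 and 7.05 CPM and rose by 2.88 ± 0.20. It was found in 22 members of section 1, with a highest value of 1186 CPM, and in 16 of section 2, with a highest value of 226 CPM, so most members had none. Cytl1 (2.74 ± 0.54), the gap junction gene Gja4 (2.06 ± 0.34), Egfl8 (1.98 ± 0.52) and Sema3g (1.86 ± 0.39) rose too. Sema3g was at 25.1 against 4.39 CPM in section 1 and 5.43 against 3.62 CPM in section 2. Some called genes of this list stand on further lists as well, Mgp and Fbln5 among the matrix genes, Mgp among the fibroblast genes, Gja4 among the arterial smooth muscle markers and Jag1 among the regulators. With 300 fibroblast-rich spots removed, 4 of the 22 were called (median 0.90). Gkn3 rose by 2.66 ± 0.21 there and Egfl8 by 1.88 ± 0.53, while Cytl1 (2.01 ± 0.63, adjusted p = 0.101) and Gja4 (1.15 ± 0.42, adjusted p = 0.225) were not called.

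Of 16 capillary endothelial genes 4 were higher (Tgm2 1.44 ± 0.25, Slc38a3, Slc16a1 and Cxcl12), with a median of 0.10, while the transporter genes Mfsd2a (0.02 ± 0.21) and Slc7a5 (0.06 ± 0.19), typical of capillaries, were not called. Of 14 venous genes 5 were higher with a median of 0.80. Among these were Vwf (von Willebrand factor, 1.69 ± 0.21), Vcam1, Car8 and Ptgds, of which Ptgds is also a fibroblast gene and Car8 a Purkinje cell gene. The venous markers Slc38a5 (0.59 ± 0.51) and Nr2f2 (0.13 ± 0.15) were not called. Of 25 pan-endothelial genes 9 were higher with a median of 0.64 (0.67 with Sox18, which had no UMI, at its bound), for instance Pecam1 (1.30 ± 0.26) and Cldn5 (0.94 ± 0.14). After removal of 300 spots, edgeR called 2 of the 25 higher, none of the 16 capillary genes and none of 13 venous genes, and Vwf was at 0.75 ± 0.27 (adjusted p = 0.215).

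Perivascular and leptomeningeal fibroblast genes that the rule did not use rose in 19 of 26 tested, with none lower and a median of 1.15. Their summed level was 9437 and 6328 CPM in members, 5565 and 3269 CPM in the other spots and 58120 and 22648 CPM in the leptomeningeal spots. Mgp, described above, is on this list and had its largest called rise. Lama1 (2.18 ± 0.41), Cyp1b1 (2.05 ± 0.49), Itih2 (1.79 ± 0.36), Nupr1 (1.71 ± 0.20) and the complement inhibitor gene Serping1 (1.65 ± 0.21) came next. Removing 300 spots left 2 of 26 higher and 1 lower (median 0.22). The part of this fibroblast RNA in the other results was not tested. Myoc, myocilin, which astrocytes of the brain surface and fibroblasts express, was at 293 and 169 CPM against 65.7 and 37.4 CPM and rose by 2.17 ± 0.10, or by 0.53 ± 0.15 with 300 spots removed. Cavin1, a coat protein of caveolae, rose by 1.72 ± 0.16.

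Border macrophage genes were higher in 6 of 20 (median 1.2, or 1.25 with Ms4a7, which had no UMI, at its bound), among them the mannose receptor gene Mrc1 (2.13 ± 0.44), Cbr2 (2.0 ± 0.66) and Lyz2 (1.30 ± 0.22). Of the 20, 1 was called with 300 spots removed, and neither Mrc1 (1.06 ± 0.56) nor Lyz2 (0.75 ± 0.25) was. Of 15 microglial genes, Ctss (0.50 ± 0.12) and C1qb (0.36 ± 0.11) were higher. Kit was the only called gene of 7 for mast cells and blood leukocytes (0.86 ± 0.25), and the mast cell genes Cma1, Mcpt4 and Cpa3 had no UMI.

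Blood was part of these spots. Of 7 red blood cell genes 5 were higher, with a median of 1.57. Hba-a1, an alpha globin, was at 967 and 789 CPM against 240 and 311 CPM and rose by 1.67 ± 0.07. Single members ranged from 0 to 10028 CPM with a median of 124 CPM in section 1 and from 0 to 12635 CPM with a median of 192 CPM in section 2, so a few spots carried most of it. Hba-a2 (1.66 ± 0.07) and Hbb-bt (1.69 ± 0.09) had like values. With 300 fibroblast-rich spots removed, 4 of the 7 were higher, with rises of 0.60 ± 0.07 for Hba-a1, 0.58 ± 0.08 for Hba-a2 and 0.80 ± 0.10 for Hbb-bt. The leptomeningeal spots held 2044 and 3352 CPM of Hba-a1.

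Of 19 astrocyte genes 11 were higher, with a median of 0.27. Gfap, the filament protein of astrocytes at vessels, surfaces and fibre tracts, was at 562 and 357 CPM against 170 and 118 CPM (1.66 ± 0.08), and Aqp4, the water channel of endfeet, at 270 and 121 CPM against 119 and 71.4 CPM (1.01 ± 0.10). The glutamate transporter genes Slc1a2 (0.00 ± 0.07) and Slc1a3 (0.12 ± 0.09) were not called. Of 15 oligodendrocyte genes 11 were higher with a median of 0.36, such as Mbp (0.42 ± 0.06). None of 10 genes of oligodendrocyte precursors was called, beside 2.97% of all genes higher and 2.39% lower. Neuronal genes fell in 9 of 19 tested, with none higher and a median of -0.21; Slc17a7, the vesicular glutamate transporter of cortical neurons, fell by 0.64 ± 0.08 and Nrgn by 0.62 ± 0.07. With 300 spots removed, 7 astrocyte genes and 6 oligodendrocyte genes were higher and 6 neuronal genes lower, and Gfap was at 0.49 ± 0.10 and Aqp4 at 0.43 ± 0.12.

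**Figure D4:**
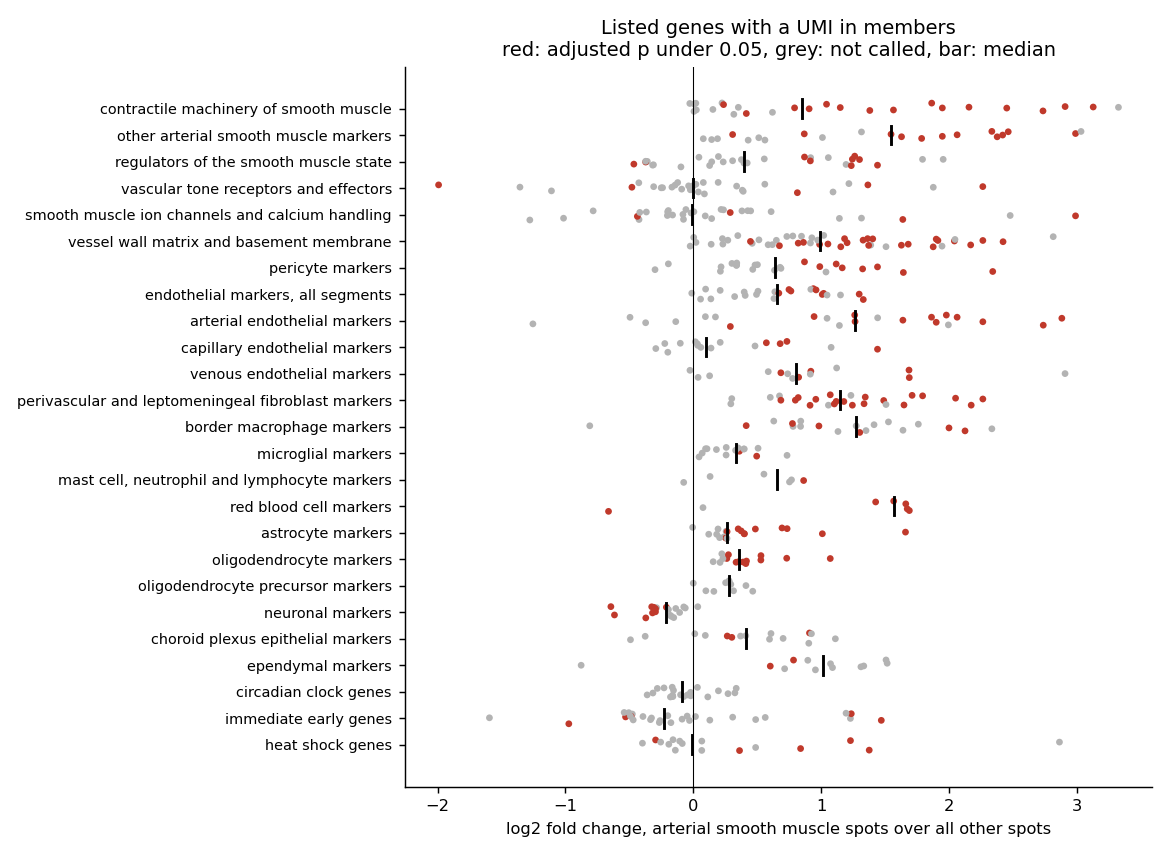
Log2 fold change of members over all other spots (x axis) for the tested genes of 25 lists (y axis), leaving out 8 genes with no UMI in the members; red points were called at an adjusted p under 0.05, grey points were not, and black bars are list medians. Medians of the contractile, arterial smooth muscle marker, matrix, arterial endothelial, fibroblast and red blood cell lists lie to the right of 0. Those of the border macrophage, ependymal, venous, pan-endothelial and pericyte lists lie there too. The capillary, vessel tone and ion channel lists lie near 0 and the neuronal list to the left.

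None of 20 circadian clock genes was called by edgeR at an adjusted p under 0.05 (median -0.09), in samples of a single clock time. Of all genes 2.97% were higher and 2.39% lower, so none in a list of 20 lies near the overall share. Of 28 immediate early genes Ccn2 (1.47 ± 0.32), a secreted matrix-associated protein gene, and Klf2 were higher, and Junb (-0.97 ± 0.25), Egr1 (-0.49 ± 0.12) and Egr3 (-0.53 ± 0.17) lower. Of 16 heat shock genes 4 were higher, led by the small heat shock genes Hspb1 (1.38 ± 0.20) and Hspb8 (1.23 ± 0.19), which muscle expresses, and Hsph1 was lower (-0.29 ± 0.09). Of 15 choroid plexus genes 3 were called, and for all 3 the sections disagreed. Ttr, transthyretin, was at 1391 against 2363 CPM in section 1 and 6541 against 2697 CPM in section 2, so its call of 0.30 ± 0.07 rests on section 2. Of 12 ependymal genes Rarres2 (0.79 ± 0.24) and Pltp (0.60 ± 0.10) were higher, with a median of 1.02 over the list. With 300 spots removed 4 of the 12 were called, again with a median of 1.02.

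Among genes of average log2 CPM of at least 4, the 15 largest rises included Pcp2, a Purkinje cell gene of the cerebellum, at 1.75 ± 0.14. It was at 255 against 75.5 CPM in section 1, with 22 of 50 members holding any and a highest value of 2290 CPM, and at 2.17 against 1.11 CPM in section 2 on 2 UMIs. With 300 spots removed it fell to -1.87. The 6 largest falls among genes above the same level were Lonrf1 (-1.24 ± 0.37), Tiam2 (-1.15 ± 0.36), Gstp1 (-1.14 ± 0.35), Snrnp35 (-1.14 ± 0.36), Nrbf2 (-1.05 ± 0.32) and the synaptic pentraxin gene Nptx2 (-1.03 ± 0.33). All 6 were at or below 11.3 CPM in the members.

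Each spot was assigned to the regional marker list with the highest standardised score, which is a score and not a position, since every spot gets a list whatever its levels. In 11 and 10 of the 50 members the first and second list lay within 0.25 SD of each other. The fibre tract list was highest in 24% of members of section 1 (95% exact interval 13.1% to 38.2%) and 22% of section 2 (11.5% to 36%), against 14.9% and 14% of other spots. For this list the intervals of the members contain the shares of the other spots in section 1 and in section 2. All intervals of the regional lists cover counting error only and take spots as independent, so they do not test a difference. The cerebellum list was highest in 14% of members of section 1 (5.82% to 26.7%) against 5.27% of other spots, and in 8% of section 2 against 8.50%, although the Purkinje cell gene Pcp2 was at only 1.11 CPM in the other spots of section 2. Striatum was highest in 14% and 6% of members and hypothalamus in 12% and 16%. Members on the fibre tract list had 444 and 319 CPM of the 7 unused markers and 13806 and 4620 CPM of the 4 globin genes. Of the leptomeningeal spots, 61.7% in section 1 and 21.7% in section 2 had the hypothalamus list highest.

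**Figure D5:**
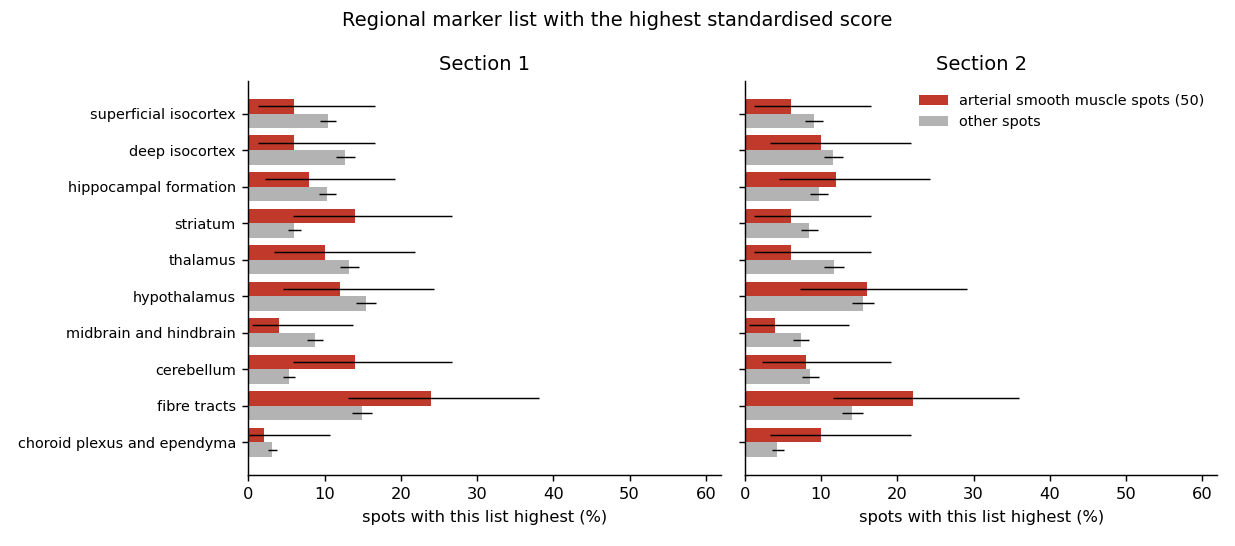
Share of spots (%, x axis) for which each regional marker list (y axis) had the highest standardised score, in members (red, 50 per section) and other spots (grey), with 95% exact binomial intervals. Fibre tracts have the longest red bar in both sections, at 24% and 22%, and every list holds at least 1 member in each section. The intervals cover counting error only.

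Against the leptomeningeal spots few contractile genes differed in the members, and many fibroblast, macrophage, matrix and blood genes were lower. Of 10225 genes tested in the same way, 0.733% were higher in members and 3.13% lower, and with a change of at least 2-fold 0.0489% and 2.18% (5 and 223 genes). This comparison uses the same member sums as the one above. Of 24 contractile genes none was higher and 4 were lower (Flna, Cald1, Cnn2 and Tln1), with a median of -0.23. Myh11 was at 123 and 65.2 CPM in members against 117 and 87.2 CPM in leptomeningeal spots (-0.16), and Mylk (0.07) and Crip1 (0.06) differed by less than their SE. Since 24 and 22 of the leptomeningeal spots passed the members' own cut, the spots compared overlap in smooth muscle content.

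Fibroblast genes were lower than in leptomeningeal spots in 20 of 25, with a median of -1.75, a difference that the removal step fixes in part. The 10 largest falls were Sphk1 and Fgl2 (both -3.65), Crabp2 (-3.29), the organic cation transporter gene Slc47a1 (-3.26), Omd (-3.10), Prg4 (-3.02), the matrix gene Fmod (-2.97 ± 0.19, 47.6 and 20.6 CPM against 418 and 118 CPM), Serpind1 (-2.89), Slc6a12 (-2.82) and Islr (-2.78). Border macrophage genes were lower in 9 of 10, matrix genes in 14 of 34, pericyte genes in 9 of 16, and red blood cell genes in 5 of 7 (median -1.55).

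Gkn3 was the vascular gene among the 10 largest rises over leptomeningeal spots, at 76.5 and 45.6 CPM against 39.3 and 24.3 CPM (0.91 ± 0.24, adjusted p = 0.00541). With 120 spots removed it was at 0.68 ± 0.25 and was no longer called (adjusted p = 0.193). The other 9 were Pak7 (1.24 ± 0.36), Akap5 (1.09 ± 0.33), Ccdc184, AI854703, Rab9b, Krt222, Rcan1, Fam169a and Rgs7bp (0.84 ± 0.20), none of which differed between members and all other spots at an adjusted p under 0.05. Of 19 neuronal genes 2 were higher than in leptomeningeal spots.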

How the data were processed

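Polyadenylated RNA was measured with 10x Visium in 2 brain sections, which form 1 group. The deposited values are raw UMI counts per gene and spot, which the authors made with Space Ranger and did not normalise; per the submitters' processing notes the version was 2.0.1 and the genome mm10, while the file headers name Space Ranger 1.2.2 for section 1 and 2.0.1 for section 2. The gene annotation used is not stated. The files list 32285 genes.

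Members, other spots and leptomeningeal spots were chosen from the counts, and UMIs were summed per section. The sums were fitted with edgeR 4.0.16 in R 4.3.3 (TMM factors, filterByExpr, a section term, quasi-likelihood F tests, Benjamini-Hochberg adjustment), with 1 residual degree of freedom. The section term pairs the sums because both come from 1 section. The SE is the log2 fold change divided by the square root of F. The rule left the 10 genes that chose spots untested. The steps were tested on simulated data. Doublets were not called, because spots are areas and not cells.

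The members and gene lists were chosen with earlier results of these data known. Genes were named by a rule: among called genes of equal sign in both sections whose average log2 CPM was 4 or more, the 15 that rose and the 6 that fell most, up to 5 called genes per list, the 10 largest changes each way against leptomeningeal spots, and the genes of the rule and of printed sequences. Other listed genes named were chosen after their values were seen. Some genes that the rule names are not reported here. Alternatives covered the numbers of spots removed and taken, depth, scoring, normalisation, filters, the section term, DESeq2 1.42.0, a split of each spot's UMIs and leaving out a section. Removing 300 spots and leaving out 100 Ttr-rich spots were added after seeing the data.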

Additional observations from a re-analysis of the deposited data

How the results depend on the processing

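All counts here are of genes past an adjusted p under 0.05 and a change of at least 2-fold. Against all other spots (187 higher and 16 lower), higher genes numbered 93 with 120 leptomeningeal spots removed, 22 with 300, 716 with none, 121 with members chosen on one random part of the UMIs and read on the other, 86 with DESeq2 and 5 without the replicate block, the section term. Lower genes numbered 4 with 300 removed, 46 with none, 4 on the split UMIs, 4 with 100 members per section, 10 without the Ttr-rich spots, and 0 with DESeq2, with a minimum of 10 counts in both member sums or without the block. At an unadjusted p under 0.05 these last 3 called 877, 1703 and 1156 genes in either direction, against 2342 with edgeR and the block. Against leptomeningeal spots (5 higher and 223 lower), higher genes numbered 0 with DESeq2 and 0 without the block, where 221 and 556 genes had an unadjusted p under 0.05 against 1388 with edgeR and the block. Lower genes numbered 394 with 100 members, 132 with 25, 137 with 120 spots removed, 127 with the minimum of 10 counts, 137 on the split UMIs, 51 with DESeq2 and 0 without the block. A stricter filter tests fewer genes, and taking other numbers of spots changes the sums; the cause of the other shifts was not tested.

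Named genes whose log2 fold change against all other spots turned sign, and that were called at an adjusted p under 0.05 before or after the change, were, with 300 spots removed, Adora2a (0.16), Anpep (-0.085), Aspn (-0.021), Car8 (-0.64), Itpr1 (-0.10), Kit (-0.31), Pcp2 (-1.87) and Ptgds (-0.24). With none removed they were Enpp2 (-0.19), Folr1 (-0.81), Itpr1 (-0.022), Sphk1 (2.40) and Ttr (-0.84). With 25 members they were Enpp2 (-0.29), Folr1 (-1.28) and Ttr (-0.94), on the split UMIs Cbr2 (-0.54), Folr1 (-0.29) and Ttr (-0.38), without the Ttr-rich spots Folr1 (-0.24) and Ttr (-0.0067), and with DESeq2 Car8 (-0.026). The sections taken alone ranged from -1.29 (section 2) to 1.01 for Car8, and from a lower value in section 1 to a higher one in section 2 for Enpp2 (-0.14 to 0.62), Folr1 (-1.40 to 1.63) and Ttr (-0.76 to 1.28). A single section leaves no residual degrees of freedom, so it gives fold changes and no calls. Depth limits genes with few UMIs: 7 of 16 listed mast cell and leukocyte genes and 5 of 38 listed tone genes had none in the members.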
